A study of Mus musculus with 2 samples.

Results

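The genes described here are 45 genes of cell division: the cyclins and kinases of G1, the retinoblastoma family, the DNA replication genes of S phase, and the genes of the mitotic spindle, kinetochore and checkpoint. They were taken by name from a table of 13138 genes, and all 45 were present. They were compared between 2 libraries of C57Bl/6 mouse primary chondrocytes, the cells that build cartilage, grown ex vivo as micromass cultures. One culture had received an adenovirus carrying Cre recombinase, which excises DNA between loxP sites, and carries the genotype label hdac3-knockout. The other had received a GFP control adenovirus and carries the genotype label wild-type. Both were thus exposed to an adenovirus. The labels give neither the age of the animals nor the number of animals or dishes pooled in a sample. Each group holds 1 library, so no difference below has a replicate check, no test is possible, and every value compares these 2 libraries and not the conditions. In such bulk RNA, fewer cells of a type and less RNA per cell cannot be told apart.

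Aspm, which encodes a protein of the mitotic spindle pole, was 6.06-fold higher in the Cre-labelled library, while the other 44 genes differed by less than 1.5-fold. Of all 12809 genes passing a minimum level, 2.25% were higher and 0.952% lower by 1.5-fold or more. Of the cyclin D genes, Ccnd1 and Ccnd2 were lower in the Cre-labelled library, Ccnd1 by the larger amount, and Ccnd3 was nearly level. The cyclin E genes and their partner Cdk2 were higher by small amounts. The S phase genes and the remaining mitotic genes were close to level, with medians slightly above 0.

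A dividing cell passes through G1, S, G2 and M phases. Cyclin D with Cdk4 or Cdk6, and then cyclin E with Cdk2, phosphorylate the retinoblastoma family, which releases E2F transcription factors and so the genes of DNA synthesis. Genes needed for mitosis are switched on later, mainly through B-Myb, the MuvB core and FoxM1 acting on a promoter element called CHR. In cartilage, chondrocytes of the growth plate proliferate in columns before they leave the cycle and enlarge, and cyclin D1 and the CDK inhibitor p57, the product of Cdkn1c, are well-known parts of that step.

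The promoter sequences are given first, since S phase and mitotic promoters carry different known elements. They come from RefSeq on GRCm38.p6, in windows from 250 bases before to 50 after each annotated start, and 36 of the 45 genes matched, with 39 windows. The letters searched on both strands were TTTGAA for CHR, CCAAT for the CCAAT box, and TTTCCCGC, TTTGGCGC, TTTCGCGC or TTTGCCGC for E2F. On opposite strands, 2 E2F matches can share bases. Each sequence below runs 5′ to 3′ on the gene's strand from 160 bases before to 30 after the start, with these letters in capitals on either strand (ATTGG is the CCAAT box on the other strand). Aspm, Cenpf and Kif23 are shown as mitotic promoters with the CHR letters, and Mcm5 and Mcm6 as S phase promoters with the E2F letters.
Aspm, chr1:139454613-139454802, plus strand: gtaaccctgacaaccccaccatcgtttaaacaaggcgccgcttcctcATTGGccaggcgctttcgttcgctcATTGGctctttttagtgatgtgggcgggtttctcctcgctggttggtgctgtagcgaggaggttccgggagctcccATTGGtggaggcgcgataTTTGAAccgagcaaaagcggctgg
Cenpf, chr1:189688057-189688246, minus strand: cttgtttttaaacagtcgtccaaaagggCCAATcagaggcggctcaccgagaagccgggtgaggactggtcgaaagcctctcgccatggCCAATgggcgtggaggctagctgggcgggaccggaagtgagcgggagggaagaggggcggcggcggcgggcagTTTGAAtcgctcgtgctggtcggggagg
Kif23, chr9:61946770-61946959, minus strand: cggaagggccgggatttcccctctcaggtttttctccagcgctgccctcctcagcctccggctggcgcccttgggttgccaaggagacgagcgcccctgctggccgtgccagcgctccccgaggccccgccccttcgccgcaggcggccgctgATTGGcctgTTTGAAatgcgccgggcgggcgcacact
Mcm5, chr8:75109349-75109538, plus strand: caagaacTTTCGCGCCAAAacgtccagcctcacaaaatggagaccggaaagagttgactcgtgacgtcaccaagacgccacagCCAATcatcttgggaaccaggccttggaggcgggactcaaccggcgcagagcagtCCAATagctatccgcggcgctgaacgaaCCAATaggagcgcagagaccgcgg
Mcm6, chr1:128359676-128359865, minus strand: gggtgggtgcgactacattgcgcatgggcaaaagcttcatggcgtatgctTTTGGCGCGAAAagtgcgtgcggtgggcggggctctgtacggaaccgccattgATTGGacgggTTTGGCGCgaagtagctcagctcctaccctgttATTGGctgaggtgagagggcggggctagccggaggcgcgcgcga

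The CHR letters begin 7 bases after the start in Aspm and 3 bases after it in both Cenpf and Kif23. Aspm also holds 3 CCAAT boxes, Cenpf 2 and Kif23 1. The promoter of Aspm has the same kinds of letters as those of Cenpf and Kif23, whose RNA differed by -0.014 and -0.051 on the log2 scale. Aurka, Kif11 and Plk1, spindle genes that also hold CHR and CCAAT letters, differed by 0.15, 0.060 and 0.019. Whether the letters bear on the differences was not tested. The CHR letters were found in 13 of 18 mitotic windows (72.2%), 1 of 13 S phase windows (7.69%) and 17.9% of the 32851 windows in the table. The 1 S phase window was that of Mcm2. The E2F letters gave the opposite picture, with 6 of 13 S phase windows (46.2%), 1 of 18 mitotic windows (5.56%, the window of Cdk1) and 2.26% of all windows. CCAAT was present in 16 of 18 mitotic windows (88.9%) and 10 of 13 S phase windows (76.9%), against 37.4% of all windows. A match describes letters and not a bound site, and a window without a match says only that these letters are not in it.

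**Figure D1:**
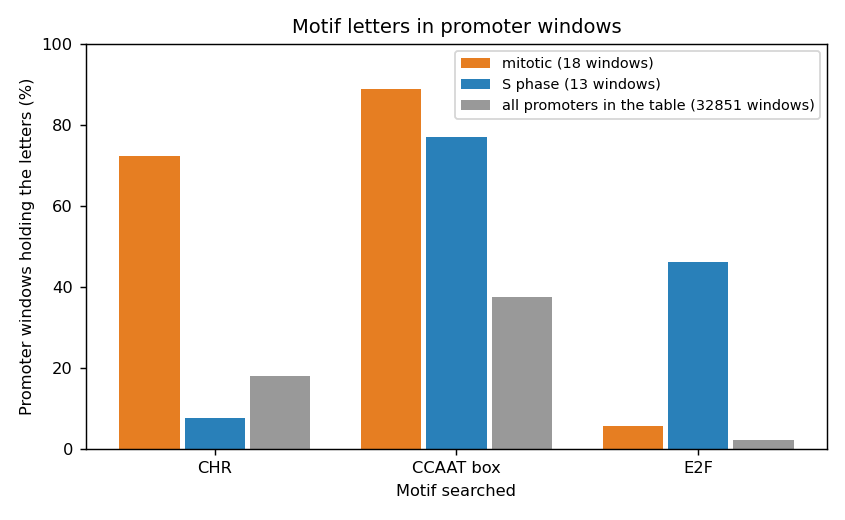
Percentage of promoter windows that hold the letters of each motif (y axis, 0 to 100%), for the mitotic windows, the S phase windows and all windows in the RefSeq table. The CHR bar is tall only for the mitotic windows (72.2%) and the E2F bar only for the S phase windows (46.2%), while the CCAAT bar is above the grey background bar in both.

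Differences between the libraries were then set beside these letters. The median Cre minus GFP difference was 0.060 over 15 genes with the CHR letters and 0.090 over 21 without them. For the E2F letters it was 0.090 over 9 genes with them and 0.064 over 27 without.

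Expression is given as the log2 normalized counts that the authors deposited. The heading of the difference column points to a regularized log, a transform that shrinks differences of genes with few reads, so differences may be understated and folds are folds of the transformed values. All 45 genes passed the minimum level, 5.64 in log2 (a normalized count of 50), and their mean log2 levels ran from 8.76 for Cdk6 to 14.07 for Ccnd2. Depth per library is unknown. Hdac3, the gene named in the label, had a log2 level of 10.68 in the Cre-labelled library and 10.69 in the GFP-labelled library, so its total gave no sign of a knockout. That difference of -0.0043 became 0.0033 with equal totals. The value is a sum over the gene and does not show whether exons were removed. All 8 chondrocyte markers were present, with Col2a1 at 19.97 and 20.35, and all 8 were lower in the Cre-labelled library (median -0.48). All 17 macrophage and osteoclast markers were measured. Their summed linear level was 59552 in the Cre-labelled library and 40495 in the GFP-labelled library, a ratio of 1.47. Lyz2, the most abundant of them, weighs most on that sum, at 14.82 and 13.98 in log2. Of the 17, 11 lay above 0 (median 0.21) and 6 below, from -0.73 for Mrc1 to 1.08 for Emr1. Of 8 skeletal muscle markers, 5 were measured, all 5 higher in the Cre-labelled library (median 0.31). Of 9 fibroblast markers, 4 lay above 0 (median -0.0027). Endothelial markers had a median of 0.048 over 5 of 6 genes and erythroid markers 1 measured gene of 4, Alas2, at 0.031. Their mean log2 levels were low, from 5.81 for Tie1 to 7.63 for Cdh5 and 6.36 for Alas2. Small differences at such levels do not show that these cells were equally present. The part of these cell types in the differences below was not tested.

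Of the 45 genes, 1 was higher by 1.5-fold or more in the Cre-labelled library and 0 were lower by that much, where 2.25% and 0.952% of all 12809 genes passing the minimum did so. At 1.2-fold, 3 were higher (Aspm, Ccne1 and Cdt1) and 2 lower (Ccnd1 and Ccnd2), against 7.88% and 6.25% of all genes. At 2-fold, 1 was higher and 0 were lower, against 0.734% and 0.0703% of all genes. Differences smaller than 0.1 on the log2 scale were found for 30 of 45 genes, where 54.8% of all genes were so small. The median difference was 0.064 for the 45 genes and -0.00041 for all genes. More of them lay above 0 (30 of 45) than below, beside 49.9% of all genes. Differences smaller than 0.2 were found for 38 of 45, beside 79.4% of all genes. Most genes of the table differed little between the libraries, and most of these 45 did too.

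**Figure D2:**
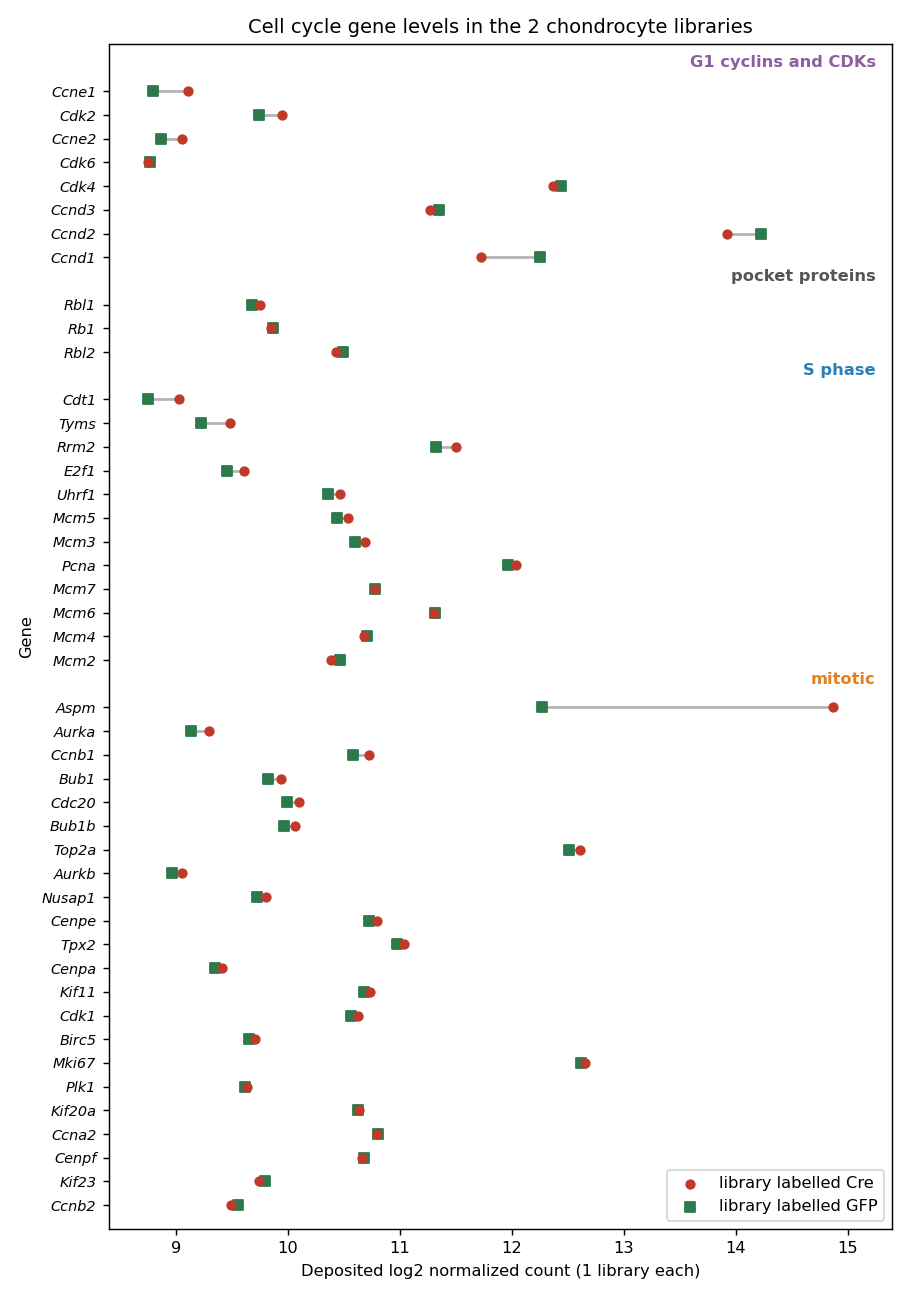
Deposited log2 normalized count of each of the 45 genes (x axis) in the Cre-labelled library (red circles) and the GFP-labelled library (green squares), grouped by role and sorted by difference within a role; a grey line joins the values of a gene. The widest gap is that of Aspm, at 14.87 and 12.27; Ccnd1 and Ccnd2 are lower, and Ccne1 and Cdt1 higher, in the Cre-labelled library by visible but far smaller gaps.

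The G1 genes showed opposite directions for the D and E cyclins. Ccnd1, on the minus strand of chromosome 7 (144929931 to 144939925, GRCm38), encodes cyclin D1, the growth-factor-induced partner of Cdk4 and Cdk6. Its log2 level was 11.72 in the Cre-labelled library and 12.25 in the GFP-labelled library, a difference of -0.52, or 1.44-fold higher in the GFP-labelled library. By absolute difference it took rank 20 among the 501 genes nearest in mean level, itself included. Ccnd2, which encodes cyclin D2, stood at 13.92 and 14.23, a difference of -0.30 (rank 99 of 501). Ccnd3, which encodes cyclin D3, differed by only -0.082 (rank 226 of 501), at 11.27 and 11.35. All 3 D cyclins therefore lay on the same side of 0, by decreasing amounts from Ccnd1 to Ccnd3, which was nearly level.

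Their kinases were nearly level. Cdk4 stood at 12.36 in the Cre-labelled library and 12.44 in the GFP-labelled library, a difference of -0.072. Cdk6, the least abundant of the 45 genes, stood at 8.75 and 8.77, a difference of -0.015. Per kilobase of exon, Ccnd2 was the most abundant member on average over both libraries, with a log2 level per kilobase of 10.69 in the Cre-labelled library and 10.99 in the GFP-labelled library, and Cdk4 took rank 3 at 10.66 and 10.74. Cdk6 took rank 45, the last, at 4.94 and 4.96. So the D cyclin and the kinase with the highest levels were Ccnd2 and Cdk4.

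The cyclin E genes lay on the other side of 0. Ccne1, which encodes cyclin E1, the activator of Cdk2 at the entry to S phase, stood at 9.10 in the Cre-labelled library and 8.79 in the GFP-labelled library. The difference of 0.31 (1.24-fold, rank 67 of 501) was the largest upward difference after that of Aspm. Ccne2 stood at 9.05 and 8.87, a difference of 0.19. Cdk2 stood at 9.94 and 9.74, a difference of 0.20. None of these reached 1.5-fold. Over all 8 G1 cyclins and kinases, 3 lay above 0 and 5 below, with a median of -0.043.

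The retinoblastoma family, which restrains E2F, was level. Rb1 stood at 9.85 in the Cre-labelled library and 9.87 in the GFP-labelled library, a difference of -0.014. Rbl1, which encodes p107 and is itself an E2F target, differed by 0.068. Rbl2, which encodes p130, the family member of resting cells, differed by -0.062. The 3 genes thus lay within 0.07 of 0 on the log2 scale.

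Among the 12 S phase genes, 8 lay above 0 and 4 below, where 49.9% of all genes lay above 0. The median of the 12 was 0.092, with a range from -0.076 for Mcm2 to 0.28 for Cdt1. Cdt1 loads the replicative helicase onto origins. Its log2 level was 9.03 in the Cre-labelled library and 8.75 in the GFP-labelled library, a 1.21-fold difference (rank 76 of 501). Tyms, which encodes the thymidylate synthase, stood at 9.48 and 9.22, a difference of 0.26 (rank 68 of 501). Rrm2, which encodes the inducible subunit of ribonucleotide reductase, stood at 11.50 and 11.32, a difference of 0.17. These 3 genes had the highest differences of the 12. E2f1, a transcription factor of the G1 to S transition, differed by 0.15, at 9.61 and 9.45. Uhrf1, which recruits maintenance DNA methylation to new DNA, differed by 0.11, at 10.47 and 10.36. Pcna, the sliding clamp of the replication fork, differed by 0.064, at 12.03 and 11.97.

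The helicase genes were close to level. The 6 genes Mcm2 to Mcm7 encode the ring that unwinds DNA at the fork, and their products work in equal numbers. In the Cre-labelled library their log2 levels ran from 10.39 (Mcm2) to 11.30 (Mcm6), and in the GFP-labelled library from 10.44 (Mcm5) to 11.31 (Mcm6). Their differences ran from -0.076 for Mcm2 to 0.095 for Mcm5, with a median of -0.0074, and 2 of 6 lay above 0. The difference of Mcm7, -0.00084, became 0.0068 with equal totals, so it has no direction. The 6 helicase genes thus lay on both sides of 0, and those above it, Mcm3 and Mcm5, stood in the middle of the S phase group.

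The mitotic genes without Aspm formed the tightest group of the 3 larger roles. Of the 21 genes, 17 lay above 0 and 4 below, where 49.9% of all genes lay above 0. The 21 ranged from -0.064 for Ccnb2 to 0.15 for Aurka, and their median was 0.064. Mki67, the gene of the Ki-67 proliferation antigen, stood at 12.65 in the Cre-labelled library and 12.62 in the GFP-labelled library, a difference of 0.035. Top2a, the topoisomerase that untangles chromosomes, stood at 12.61 and 12.51. Among the drivers of mitotic entry, Cdk1 stood at 10.63 and 10.57, and its partners pointed different ways by small amounts. Ccnb1, which encodes cyclin B1, differed by 0.14, Ccnb2 by -0.064 and Ccna2, which encodes cyclin A2 of S and G2 phases, by -0.0080. The mitotic kinase Plk1 differed by 0.019.

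The 4 members listed as kinetochore and checkpoint genes all lay slightly above 0, where 49.9% of all genes did so. Cenpe and Cenpf, also of the kinetochore, were listed with the spindle genes and differed by 0.071 and -0.014. Cenpa, the histone H3 variant of centromeres, differed by 0.064. The checkpoint kinase genes Bub1 and Bub1b differed by 0.12 and 0.096, and Cdc20, which activates the anaphase promoting complex, by 0.10. None of these came near 1.5-fold.

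Aspm was set against the 11 other genes of spindle assembly and cytokinesis. In the Cre-labelled library its log2 level was 14.87 and in the GFP-labelled library 12.27, a difference of 2.60. This was rank 7 among all 12809 genes ordered from the highest difference, and rank 2 of 501 among genes of its level. Of the 11 other spindle genes, 9 lay above 0, where 49.9% of all genes did. The 11 differed by -0.051 (Kif23) to 0.15 (Aurka), with a median of 0.060. The difference of Aspm exceeded that median by 2.54 and the highest of the 11 by 2.45. Kif11, the motor that pushes spindle poles apart, stood at 10.74 and 10.68. Tpx2, which nucleates spindle microtubules and activates Aurora A, stood at 11.04 and 10.97. Nusap1, which bundles microtubules, differed by 0.081. Kif20a and Kif23, motors of the central spindle and cytokinesis, differed by 0.011 and -0.051. The chromosomal passenger genes Aurkb and Birc5 differed by 0.090 and 0.059. Cenpe and Cenpf, large proteins of the outer kinetochore, differed by 0.071 and -0.014. None of these 11 genes came near the difference seen for Aspm.

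**Figure D3:**
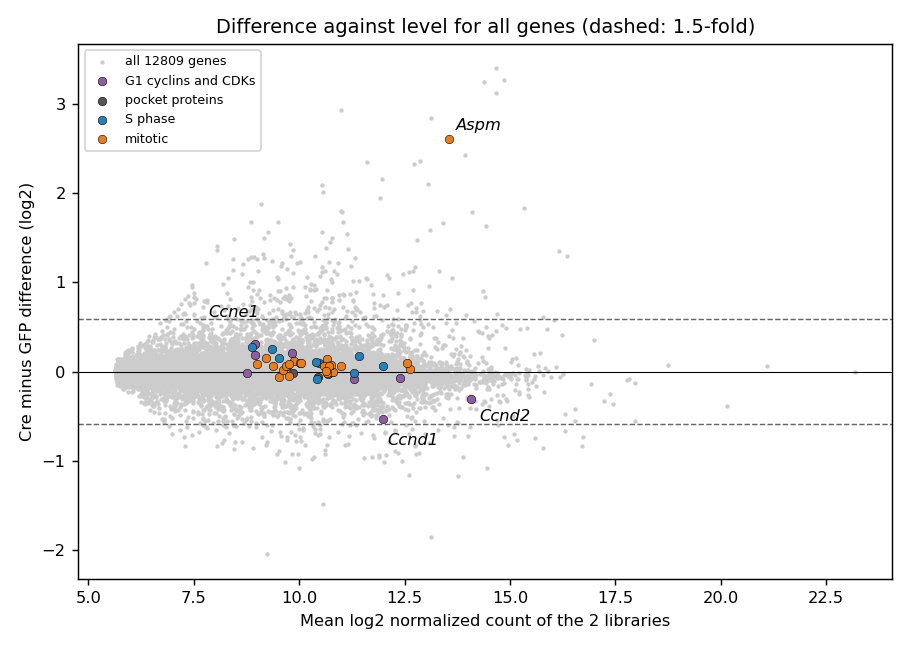
Cre minus GFP difference on the log2 scale (y axis) against the mean log2 normalized count of both libraries (x axis) for all 12809 genes in grey, with the 45 genes coloured by role; dashed lines mark 1.5-fold. Aspm lies at 2.60, far above the other coloured points, which lie between the dashed lines, with Ccnd1 lowest at -0.52.

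Levels between genes can be compared only per length, so the log2 level was taken per kilobase of annotated exon. In the GFP-labelled library, Aspm had a log2 level of 8.73 per kilobase, close to the highest of the 11 other spindle genes (Tpx2, 8.75) and 1.94 times their median. There, 13 of the 45 genes were above it. In the Cre-labelled library it had 11.33 per kilobase, 11.3 times the spindle median, and 0 of the 45 genes were above it. The other spindle genes had a median log2 level per kilobase of 7.78 in the GFP-labelled library and 7.84 in the Cre-labelled library. Aspm was therefore an ordinary abundant spindle gene in one library and the most abundant of the 45 genes in the other. Exon lengths join all annotated transcripts, so the length of a gene can be overstated and its level per kilobase understated. This applies to Aspm and to the genes it is set beside, so the ratios between them can err either way.

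**Figure D4:**
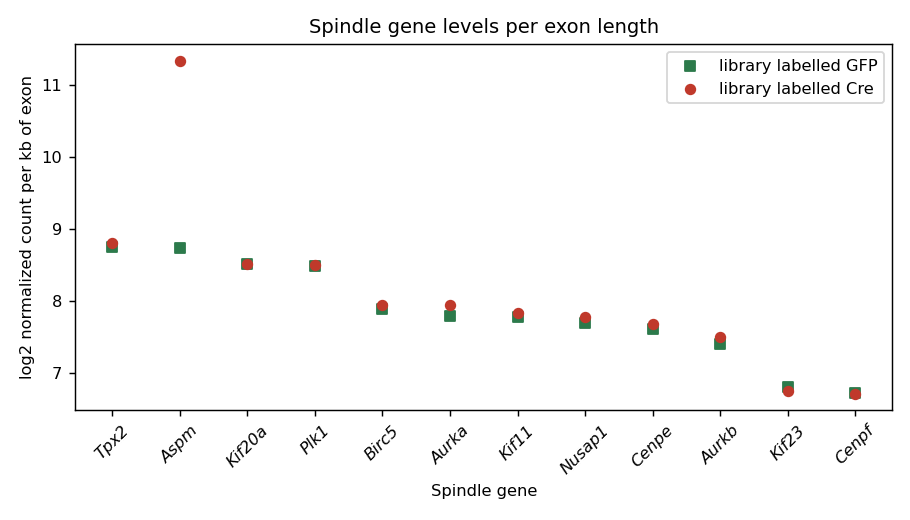
Log2 normalized count per kilobase of exon (y axis) for Aspm and the 11 other spindle genes (x axis, ordered by level in the GFP-labelled library), with 1 point per library. Red and green points coincide within 0.2 for every gene but Aspm, which stands at 8.73 in the GFP-labelled library and 11.33 in the Cre-labelled library.

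Aspm lies on the plus strand of chromosome 1, from 139454772 to 139494091 (GENCODE M21, GRCm38), and shares no exon with another annotated gene. Of the 3 nearest annotated genes on each side (RefSeq, GRCm38.p6), 1 of 6 was in the table. That gene, Zbtb41, ends 1.18 kb before Aspm on the same chromosome and had log2 levels of 11.42 and 11.51, a difference of -0.085. It did not differ as Aspm did. The table holds 1 total per gene, so which exons the extra Aspm counts came from was not analysed here.

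Exons of 16 of the 45 genes overlap those of another annotated gene. The strand setting of the authors' counting is not given in the sources used here, so such genes may share or lose reads. Ccnd1 shares 1100 bases with LTO1 on the opposite strand, and Kif20a shares 1271 bases with Cdc23 on the opposite strand. Ccne2, Cdk4 and Ccna2 also overlap a protein-coding gene on the opposite strand, by 609, 641 and 510 bases. The same kind of overlap was found for Rbl2 with Aktip (693 bases) and for Rb1 with Rcbtb2 (488) and Lpar6 (408). Ccnd3 shares 361 bases with Bysl and Mcm7 shares 321 with Ap4m1, also on the opposite strand.

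The wider cell cycle machinery was described with 11 further lists drawn from general knowledge, 193 genes in all, each of them measured (5 of the listed symbols were matched through RefSeq synonyms). Of these, 0 were higher and 1 was lower by 1.5-fold or more, beside the shares of 2.25% and 0.952% of all genes given above. Above 0 lay 127 of 193, where 49.9% of all genes did. The median over all 193 was 0.046. The 1 gene past 1.5-fold was Cdkn1c, an imprinted gene that encodes p57, the CDK inhibitor of chondrocytes leaving the cycle. It stood at 12.68 in the Cre-labelled library and 13.47 in the GFP-labelled library, a difference of -0.79, or 1.73-fold higher in the GFP-labelled library. None of the other CDK inhibitor genes passed 1.5-fold. Cdkn1b, which encodes p27, and Cdkn2c, which encodes p18, were lower too, by -0.22 and -0.11, whereas Cdkn1a, which encodes p21, differed by 0.13. Cdkn2b, which encodes p15, was the highest of that list at 0.29. The list of 12 also holds the Cdc25 phosphatases and the inhibitory kinases Wee1 and Pkmyt1, and 7 of 12 lay above 0.

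Most upstream regulators also had small positive values. Of 15 E2F, DP and MuvB genes, 11 lay above 0, with a median of 0.11, from -0.076 for Lin52 to 0.30 for E2f2. The mitotic regulators Foxm1 and Mybl2 differed by 0.18 and 0.21, both named after their values were seen. For origin licensing and firing the median was 0.035, and 14 of 19 genes lay above 0, from -0.092 for Gins3 to 0.27 for the helicase cofactor Cdc45. The 24 replication fork genes were centred on 0.018, 15 of them above 0, from -0.14 for Rpa3 to 0.25 for Timeless, which protects stalled forks. The 11 genes of nucleotide synthesis were centred on 0.050, 7 of them above 0, from -0.12 for Gart to 0.35 for Ctps, the CTP synthase.

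The mitotic lists had medians close to 0, like that of the mitotic members, and each ran over a wider range than those members without Aspm. The counts above 0 stand beside 49.9% of all genes. Of 26 kinetochore genes, 18 lay above 0 around a median of 0.070, from -0.14 for Cenpm to 0.20 for Hjurp, the chaperone that loads Cenpa. Of 12 checkpoint and passenger genes, 8 lay above 0 around a median of 0.029, from -0.073 for Mad1l1 to 0.27 for Incenp. The 15 genes of mitotic kinesins and cytokinesis were centred on 0.056, 10 of them above 0, from -0.12 for Anln to 0.27 for Kifc1. Spindle pole and centriole genes, which hold other genes of primary microcephaly, the disorder known for ASPM mutations, were centred on 0.053, with 17 of 22 above 0. They ran from -0.22 for Haus1 to 0.21 for Wdr62. None of the 22 reached 1.5-fold, where 2.25% of all genes were higher and 0.952% lower by that much. The 19 condensin and cohesin genes were centred on 0.053, 11 of them above 0, from -0.10 for Pds5b to 0.20 for Ncapd3. The 18 genes of the anaphase promoting complex were centred on -0.022, 9 of them above 0, from -0.17 for Cdc23 to 0.22 for Ube2c, its ubiquitin-conjugating enzyme.

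**Figure D5:**
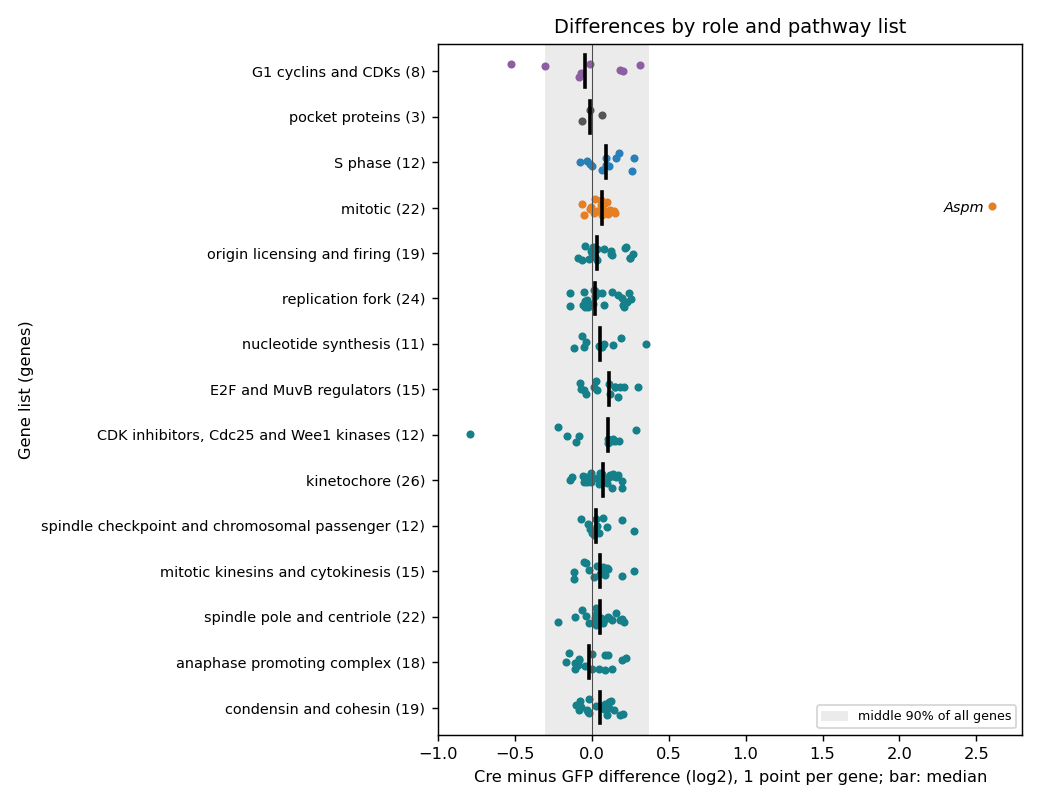
Cre minus GFP difference on the log2 scale (x axis) for each measured gene of the 4 roles and the 11 wider lists (y axis, number of genes in parentheses); black bars are medians and the grey band is the middle 90% of all genes, from -0.30 to 0.37. Apart from Aspm at 2.60, Cdkn1c at -0.79 and Ccnd1 at -0.52, the points lie within or at the edge of the band.

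S phase and mitotic genes were finally set against each other. The S phase median of 0.092 exceeded the mitotic median of 0.064 by 0.028. That gap is small beside the range within either group, from -0.076 to 0.28 for S phase and from -0.064 to 0.15 for mitotic genes without Aspm. By means the order turned, at -0.080, because Aspm alone raises the mitotic mean to 0.17. Without Aspm the mitotic mean was 0.056 and the S phase mean exceeded it by 0.035. With 1 library per group, neither gap can be set against an error between cultures.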

How the data were processed

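RNA was measured in 2 libraries, from TRIzol extracts by Illumina's TruSeq v2 mRNA procedure, per the labels' protocols. Build mm10, TopHat2 2.0.6, bcl2fastq 1.8.4 and HTSeq (no version) are named, per the submitters' processing notes. How strand and multiply aligned reads were treated, and with which annotation, is not stated in the labels. The authors deposited log2 values of normalized counts, 1 column per library, with their mean and difference. The transform is not described, and a regularized log is inferred from the column heading. In all 13138 rows the deposited difference was the GFP value less the Cre value, and differences here are Cre minus GFP. The source field of both samples names an acetylation ChIP, whereas their titles name RNA-Seq. Depth is unknown, and no interval can be given.

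A minimum mean level of 50 (5.64 in log2) was set, which 12809 genes passed. Computed were differences, counts past 1.5-fold, medians, ranks among the 500 genes nearest in level, levels per kilobase of exon (GENCODE M21) and motif letters, with pandas 2.3.3 in Python 3.11.15. Listed symbols that the table gives under an older name were matched through RefSeq synonyms. The counting code was tested on simulated data. The members and lists were chosen with earlier results of these data known. Named were Hdac3, all members, the highest and lowest gene of each pathway list, the neighbours of Aspm and cell type markers, and genes outside this rule are marked; other CDK inhibitors than the highest and lowest were named after their values were seen. Alternatives were other scalings, minimums, folds, summaries and memberships.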

Additional observations from a re-analysis of the deposited data

How the results depend on the processing

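Of 45 alternative values for the medians, contrasts and counts, 41 stayed near the main value without a change of sign. Near means within 0.1 on the log2 scale, or for counts within 1.5 times. Many of the 45 values could not have moved. All members pass the minimum, so dropping it repeats the main values, and a scaling offset cancels in a contrast. The limit of 0.1 is also wider than the main medians and the S phase minus mitotic gap of 0.028. The count of 41 is therefore no measure of how stable those values are. The mean in place of the median moved the mitotic value to 0.17 and turned the S phase minus mitotic contrast to -0.080, since Aspm weighs on a mean. At 1.2-fold, 3 members were higher and 2 lower, and at 2-fold 1 was higher and 0 lower. Of 90 alternative values for single members, 1 changed sign, that of Mcm7 to 0.0068 with equal totals. These 90 values only shift every member by 1 of the 2 scaling offsets, -0.00041 and -0.0077. Only a member closer to 0 than its offset could change sign, so the count does not measure how stable a member is. The mean without Aspm was added after seeing the data. A minimum 10 times higher left 41 of 45 members. No paired analysis was possible because the groups consist of a single library apiece, and leaving out a library leaves no comparison.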

Other observations

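These families were defined by their gene symbols after the values of the members had been seen, and they are described without a test. The replication-dependent histone genes encode the histones made in S phase. Most of their transcripts lack a poly(A) tail, so an mRNA kit that selects such tails sees few of them. The 8 measured genes, taken by symbol alone, all lay below 0, where 49.9% of all genes lay above it. Their median was -0.14 and their range from -0.22 to -0.048. Whether the transcripts seen here are those made in S phase was not tested, so they are not set against the S phase members. Hist1h1c, which encodes a linker histone, stood at 11.30 in the Cre-labelled library and 11.52 in the GFP-labelled library. Hist1h2bc stood at 9.09 and 9.29. These genes belong to families of similar copies, and how multiply aligned reads were treated is not stated, so their values are uncertain. Of the 8, 0 reached 1.5-fold, where 2.25% of all genes were higher and 0.952% lower by that much.

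Cyclins and CDKs outside the 45 genes, many of which act in transcription, had a median of 0.058 over 26 genes. Of the 26, 16 lay above 0, beside 49.9% of all genes. Ccng2, a cyclin linked to cell cycle exit, was the highest at 0.38, with 9.84 in the Cre-labelled library and 9.46 in the GFP-labelled library. Cdk17 was the lowest at -0.25. Kinesins outside the 45 genes, which include the motors of cargo transport, had a median of 0.029 over 31 genes. Of these, 18 lay above 0, where 49.9% of all genes did. The family includes mitotic kinesins already counted in the list above, among them its highest gene, Kifc1 at 0.27. The lowest was the neuronal-type motor gene Kif21b at -0.37, with 9.73 in the Cre-labelled library and 10.09 in the GFP-labelled library. No cyclin, CDK or kinesin of these families reached 1.5-fold, where 2.25% of all genes were higher and 0.952% lower by that much.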
